A study of Homo sapiens with 6 samples.

Results

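The proteasome genes examined here are the 50 protein-coding genes, of 20037 in the RefSeq gene table of GRCh38.p14, whose symbols begin with PSMA to PSMG followed by a number. MYT1L peaks were counted in the body of each gene and within 5 kb of either end. By known role, 41 of the 50 encode constitutive subunits, regulators or assembly chaperones, 3 encode the inducible catalytic subunits of the immunoproteasome, 1 a thymus-type and 1 a testis-type subunit, and 2 the interferon-induced activator PA28 alpha and beta. The remaining 2, PSMC3IP and PSME3IP1, match by name only and encode proteins named for interacting with a proteasome gene product. The data were CUT&RUN peak lists from wild-type H1 cells, a line of human embryonic stem cells, sampled at day 30, which the series describes as cortical interneurons made from the stem cells. The target in 4 libraries was MYT1L, a zinc-finger transcription factor of neurons, and 2 control libraries used IgG, which has no chromatin target. All 6 libraries carried the same line, wild-type genotype and day, so of these labels only the antibody separated the groups. The groups also differed in depth, as given below. The labels give the cell type as embryonic stem cells, the passage as a range, p10-p60, and no purity of the derived cells, and peak lists hold no expression from which the cell type could be checked.

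The proteasome degrades proteins tagged with ubiquitin. Its 20S core is a barrel of alpha rings, which gate the entry, around beta rings, whose catalytic subunits cut proteins. The 19S cap adds a base, with a ring of ATPases that unfolds substrates, and a lid, which removes ubiquitin. Interferon induces replacement catalytic subunits and the activator PA28, which change the peptides made for display on MHC class I, and neurons rely on constitutive proteasomes for turnover at synapses.

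On chromosomes 1 to 22, X and Y the MYT1L lists held between 12310 and 30086 peaks and the IgG lists 976 and 998. The depth estimated from the peaks was 2.37 to 6.31 times that of IgG replicate 2 in the MYT1L libraries, and 1.63 times in IgG replicate 1. A gene was called when a region of joined MYT1L peaks in its window held peaks of at least 3 of the 4 MYT1L libraries and touched no IgG peak. With 4 libraries against 2 the smallest exact permutation p, two-sided, is 0.133, so counts are given as descriptions beside the same count over all protein-coding genes. Nothing in the labels says that replicates came from separate cultures, so their spread may be technical. The libraries came from bulk cells, and a peak present weakly in all cells and one present strongly in a few cannot be told apart.

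MYT1L peaks lay at the starts of most proteasome genes. In all, 33 of the 50 genes (66.0%) were called, against 48.0% of all protein-coding genes. A region with peaks in all 4 MYT1L libraries was present at 22 of the 50 genes (44.0%), against 25.3% of all genes, and a region in at least 2 libraries at 42 (84.0%), against 65.3%. Only PSMC3, PSMA8 and PSMB11 had no MYT1L peak anywhere in the window. At least 1 MYT1L peak was found at 47 genes (94.0%), against 84.1%, a background so high that this last count separates the proteasome genes little. By role the calls took in most of the alpha ring, the lid and the assembly chaperones, and left out every catalytic beta subunit. Each role holds few genes, so its count is a description to be read beside the 48.0% of all genes.

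The excess over all genes was seen in each MYT1L library. MYT1L replicate 1 had a peak at 40 of the 50 genes (80.0%, against 68.0% of all genes) and MYT1L replicate 2 at 26 (52.0%, against 43.0%). MYT1L replicate 3 had one at 38 (76.0%, against 57.3%) and MYT1L replicate 4 at 47 (94.0%, against 77.6%). In the controls, IgG replicate 1 had no peak at any of the 50 genes (1.61% of all genes) and IgG replicate 2 had one at 4 (8.0%, against 2.9%). Each MYT1L library therefore had more proteasome genes with a peak than each IgG library, but the MYT1L libraries were also the deeper ones. Of the 33 called genes, 32 had at least 1 MYT1L peak strong enough to be expected at the depth of IgG replicate 1, and 25 at that of IgG replicate 2. In at least 3 libraries such peaks were expected at 7 of the 33 at the depth of IgG replicate 1 and at 0 at that of IgG replicate 2.

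**Figure D1:**
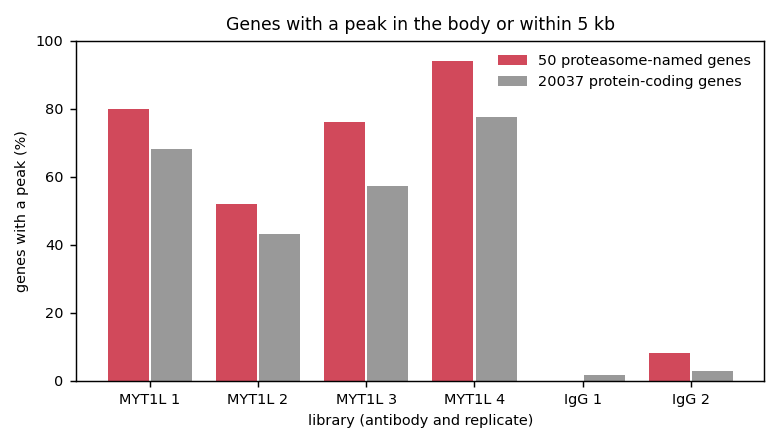
Percent of genes with at least 1 peak in the gene body or within 5 kb of either end (y axis) in each of the 6 libraries (x axis), for the 50 proteasome-named genes in red and all 20037 protein-coding genes in grey. The red bar is the taller in all 4 MYT1L libraries (80.0% against 68.0% in MYT1L replicate 1) and in IgG replicate 2, and is at 0 in IgG replicate 1.

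Most of the called regions lay at gene starts. A transcription start was listed for 44 of the 50 genes, and 30 of these (68.2%) had a called region within 1 kb of one, against 42.2% of 15843 protein-coding genes with a listed start. In 28 of the 30 the summit, the position with most fragments, lay within 250 bp of the nearest start of the gene. The median position was 17 bp downstream of the start, and 16 of the 30 summits lay downstream. PSMA7, PSMB1 and PSMG3 have no listed start, and their called regions lay 217, 102 and 108 bp from a gene end. Of the 37 called regions at genes with a listed start, 30 lay within 1 kb of a start of that gene. No gene was called through a distant region alone, so the window of 5 kb added further regions but no further genes.

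**Figure D2:**
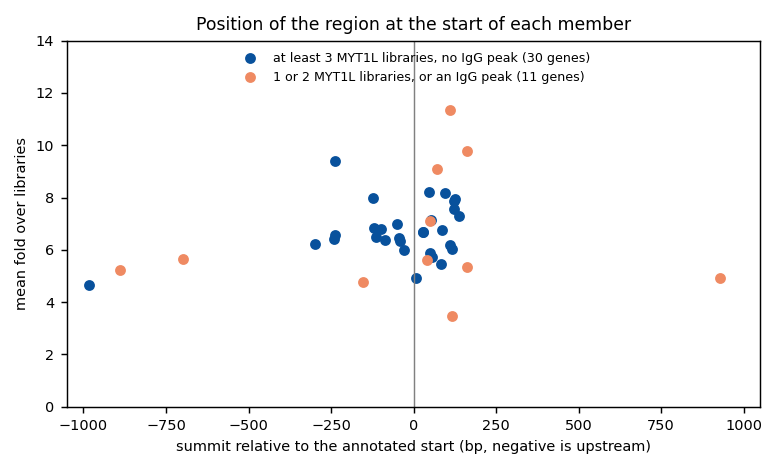
Position of the summit of each start region relative to the nearest listed start of the gene, in bp (x axis, negative is upstream), against the mean fold over the libraries with a peak (y axis). Blue points are the 30 called genes with a listed start and orange points 11 genes with peaks in 1 or 2 MYT1L libraries or with an IgG peak; 28 of the 30 blue points lie within 250 bp of the start.

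Promoter composition and gene length were compared because both can set how often a peak falls in a window. The listed promoters of the proteasome genes held a median of 22 CG dinucleotides in 300 bases, as did those of all genes. Among promoters with at least 10 CG, 29 of 40 proteasome genes were called (72.5%), against 60.9% of all such genes. Among the 4 with fewer, 1 was called, against 20.5%. This was PSMF1, whose called region lay at an internal start and not at the promoter counted here. The proteasome genes were shorter than most, with a median length of 13551.5 bp against 24115 bp, so the window gave fewer places for a peak. Within the range of length that holds the middle of the proteasome genes, 7418.25 to 29296.5 bp, 17 of 24 were called (70.8%), against 42.3% of all genes of that length. The split at 10 CG was chosen after the data were seen.

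Head-to-head neighbours were not more frequent than among all genes. Another gene started on the opposite strand within 1 kb upstream of the first listed start at 8 of the 44 proteasome genes (18.2%, against 19.9%). These were PSMA2, PSMB9, PSMC4, PSMD9, PSMD10, PSMD13, PSME2 and PSME4, and 5 of them were called (62.5%, against 68.1% of all genes with such a neighbour). Of the 36 without one, 25 were called (69.4%, against 45.5%). So the share was near that of all genes where a neighbour started head-to-head and above it elsewhere. PSMD9, 1 of the 8, had peaks in all 4 MYT1L libraries and was uncalled only for an IgG peak. This comparison was also chosen after the data were seen and not tested. At a shared promoter a peak cannot be assigned to one of the genes.

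The peaks at proteasome genes were about as strong as those at other genes. The windows of the 33 called genes held 40 called regions, whose mean fold over local background had a median of 6.69. Over 8937 called regions at all protein-coding genes the median was 6.43, and 24 of the 40 lay above it. Their median width was 809.5 bp, against 834 bp. The fold is the authors' value for the highest peak of a library in the region, averaged here over the libraries with a peak, which leaves out libraries where the region was too weak to be listed. The lowest of the 40, with a mean fold of 4.45, lay in the window of PSMD14 beyond the gene, 538 bp from the start of TBR1, and the highest, 9.39, was that of PSMG2 and stood at the 97.8th percentile of all genes' regions.

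MYT1L replicate 4 gave the largest folds. Its median fold over the called regions of the proteasome genes was 9.43, against 5.49, 5.80 and 5.50 in MYT1L replicates 1 to 3. Over all genes' regions the medians were 8.02 in MYT1L replicate 4 and 5.60, 5.80 and 5.63 in the others. At 17 of the 19 proteasome genes with a start region in all 4 libraries and no IgG peak, MYT1L replicate 4 had the highest fold. The exceptions were PSMD3 and PSMD6. Among all genes' regions in 4 libraries, 80.5% of 4277 had their highest fold in this library. The summits of the called start regions rested on 6 to 62 estimated fragments, with medians of 15, 9, 13 and 31 in MYT1L replicates 1 to 4. Without MYT1L replicate 4, where peaks in 2 of the 3 libraries left suffice, 31 genes were called (62%, against 49.3% of all genes). All 31 were among the 33.

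**Figure D3:**
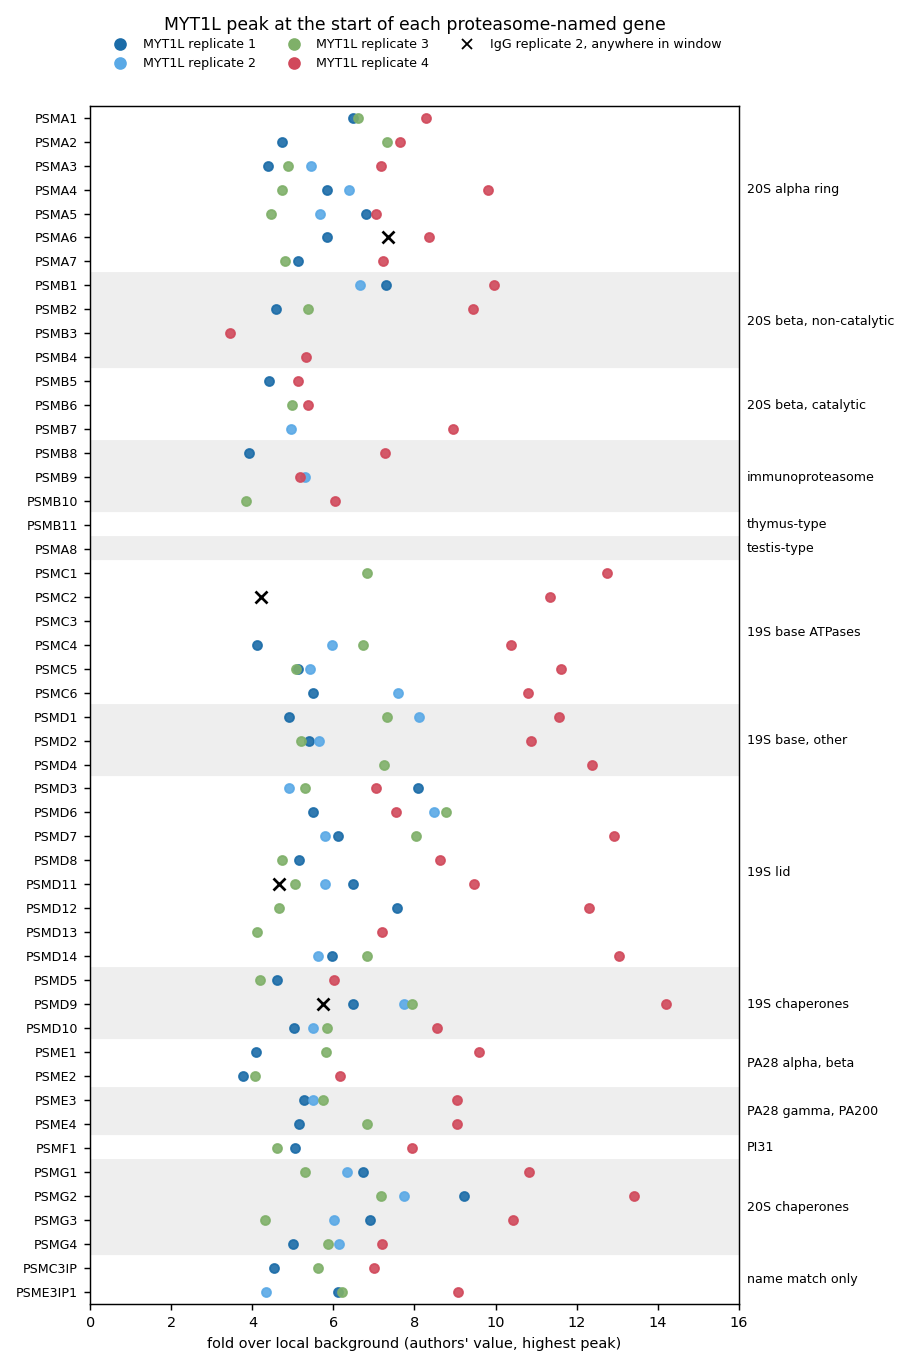
Fold over local background (x axis, the authors' value, highest peak of each library) in the start region of each of the 50 proteasome-named genes (rows, grouped by role as named at the right). Circles are the 4 MYT1L libraries and a cross is an IgG replicate 2 peak anywhere in the window of the gene. A missing circle means that no peak was listed. IgG replicate 2 was the shallowest library, so crosses and circles are not on one scale. MYT1L replicate 4 is the rightmost circle at most genes, up to 14.2 at PSMD9, and the rows of PSMB11, PSMA8 and PSMC3 are empty.

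The alpha ring was called nearly whole, at 6 of 7 genes (85.7%, against 48.0% of all genes). PSMA3, PSMA4 and PSMA5 had start regions in all 4 MYT1L libraries, with mean folds of 5.47, 6.69 and 5.99, and PSMA1, PSMA2 and PSMA7 in 3, with 7.12, 6.56 and 5.71. MYT1L replicate 2, the library with the fewest peaks, was the one missing at these last 3 genes. PSMA1 held 2 further called regions, one at chr11:14643546-14644993 with a mean fold of 6.98 in 4 libraries and one at chr11:14633354-14633901 with 5.20 in 3. They lay 123538 and 113175 bp upstream of its nearest listed start. The summit of the first was 262 bp beyond the upstream boundary of the gene. PSMA2, an alpha ring subunit, had the strongest region of this ring, at chr7:42911512-42912372 with folds of 7.02, 8.97, 10.6 and 10.4 in MYT1L replicates 1 to 4 (mean 9.23 ± 1.64, SD, n = 4). This region lay 4824 bp beyond the gene and 33 bp from the start of C7orf25. The start region of PSMA2 itself, chr7:42931903-42932647, had folds of 4.73, 7.31 and 7.63 in MYT1L replicates 1, 3 and 4 and lay 35 bp from the start of MRPL32. So neither of the regions counted for PSMA2 had its own start as the nearest one. PSMA5 likewise held a region in all 4 libraries at chr1:109397523-109398349 (mean fold 7.71), 30 bp from the start of SORT1.

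PSMA6, the uncalled alpha subunit gene, had peaks in MYT1L replicates 1 and 4 at chr14:35292159-35292946, with folds of 5.84 and 8.37. IgG replicate 2 had a peak there too, with a fold of 7.35 on 9 estimated fragments, 78 bp from a listed start of the gene. The deposited IgG fold lay between the MYT1L folds, so at this start IgG was not below both MYT1L libraries. The fold adds 1 to the fragments and to the background, which lowers it more in a shallow library such as this one. The order is therefore not one of enrichment at equal depth.

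The beta ring was called at 2 of its 7 constitutive genes, against 48.0% of all genes. Both encode subunits without a catalytic site. PSMB1 had folds of 7.30, 6.65 and 9.97 in MYT1L replicates 1, 2 and 4 at chr6:170552897-170553331 (mean 7.98 ± 1.76, SD, n = 3). PSMB2 had 4.58, 5.36 and 9.43 in MYT1L replicates 1, 3 and 4 at chr1:35641302-35641800. The other non-catalytic genes, PSMB3 and PSMB4, had a start region in MYT1L replicate 4 only, with folds of 3.45 and 5.33. Of the catalytic genes, PSMB5, which encodes the chymotrypsin-like subunit, had folds of 4.40 and 5.13 in MYT1L replicates 1 and 4. PSMB6, the caspase-like subunit gene, had 4.98 and 5.36 in MYT1L replicates 3 and 4. PSMB7, the trypsin-like subunit gene, had 4.95 and 8.94 in MYT1L replicates 2 and 4. All 3 therefore missed the call by 1 library.

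The immunoproteasome genes likewise had start regions in 2 libraries. PSMB8, PSMB9 and PSMB10 replace the catalytic subunits after interferon, and none of the 3 was called, against 48.0% of all genes. PSMB8 had folds of 3.91 and 7.28 in MYT1L replicates 1 and 4 at chr6:32844409-32844900, 39 bp downstream of its start. A further region in the same libraries, chr6:32838519-32838813 with folds of 5.04 and 11.2, lay 55 bp from the start of the neighbouring peptide transporter gene TAP2. PSMB9 had folds of 5.29 and 5.16 in MYT1L replicates 2 and 4 at chr6:32853140-32854352. Its summit lay 888 bp upstream of PSMB9 and 400 bp from the start of TAP1, the partner of TAP2, so it was nearer to TAP1. PSMB10 had folds of 3.83 and 6.03 in MYT1L replicates 3 and 4 at chr16:67935351-67936432, 927 bp inside the gene, and a further peak with a fold of 3.32 in MYT1L replicate 1 at chr16:67939872-67940226, upstream of the gene. In the start regions MYT1L replicate 4 was common to all 3 genes, and the other library differed from gene to gene.

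The thymus-type catalytic gene PSMB11 and the testis-type alpha gene PSMA8 had no peak in any of the 6 libraries. PSMB11 replaces a catalytic subunit in thymic cortex, and its promoter held 4 CG, whereas that of PSMA8, a subunit of germ cells, held 25. Counted together, the immunoproteasome, thymus and testis genes were called at 0 of 5, and the constitutive genes at 29 of 41 (70.7%). Of all protein-coding genes 48.0% were called, and with only 5 genes in the first group the difference was not tested.

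This contrast did not separate inducible from constitutive genes within the catalytic subunits. Counted over all 7 catalytic genes, PSMB5 to PSMB11, a set drawn after the values were seen, 0 were called and 6 had a region in 2 MYT1L libraries. The other constitutive genes were called at 29 of 38, and all protein-coding genes at 48.0%. Counting regions in at least 2 libraries gave 3 of the 5 immunoproteasome, thymus and testis genes (60%) and 6 of the 7 catalytic genes (85.7%). Of all genes, 65.3% were called in this way. Without MYT1L replicate 1, 2 or 3, where 2 of the 3 left suffice, 2 of the 5 (40%) and 4 of the 7 (57.1%) were called. The shares of all genes were then 55.4%, 63.3% and 59.9%, so the catalytic share was near that of all genes. Without MYT1L replicate 4 none was called, against 49.3% of all genes. MYT1L replicate 4 was 1 of the 2 libraries in each of the 6 start regions. The absence of calls at catalytic genes thus ended when peaks in 2 libraries sufficed only where MYT1L replicate 4 was among the libraries.

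**Figure D4:**
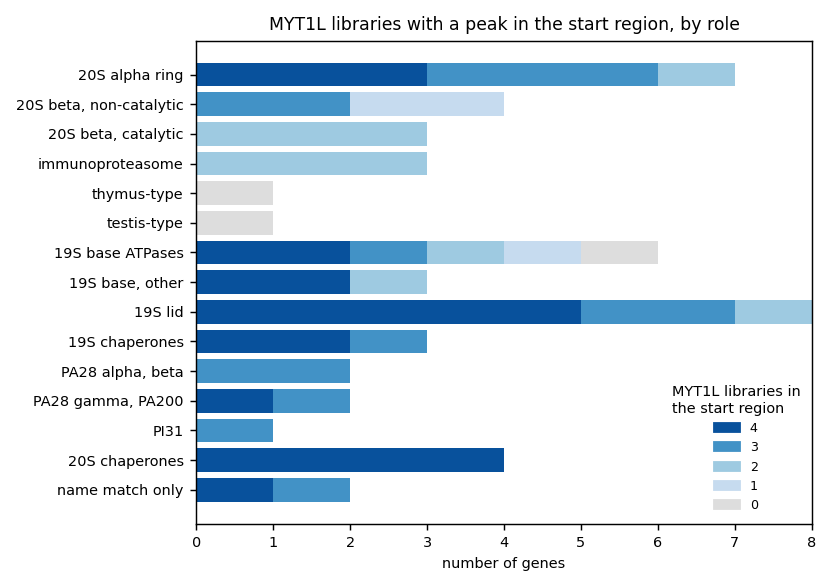
Number of genes (x axis) by the number of MYT1L libraries with a peak in the start region, from 4 in dark blue to 0 in grey, for each role (y axis). IgG peaks are not taken into account. All bars of the catalytic and immunoproteasome genes stand at 2 libraries, while all 4 chaperones of the 20S core stand at 4.

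The ATPases of the base were called at 3 of 6 genes (50%), near the 48.0% of all genes. PSMC6 had folds of 5.49, 7.60 and 10.8 in MYT1L replicates 1, 2 and 4 at chr14:52706902-52707692 (mean 7.96 ± 2.67, SD, n = 3), 126 bp downstream of its start. A region beyond its other end, chr14:52729858-52730723, was present in all 4 libraries with a mean fold of 7.93 and lay 165 bp from the start of STYX. PSMC4 and PSMC5 had start regions in all 4 libraries, with mean folds of 6.80 and 6.82. Both lay nearer to the start of another gene, 95 bp from LOC124904720 and 62 bp from FTSJ3. PSMC1 had folds of 6.82 and 12.8 in MYT1L replicates 3 and 4 only. PSMC2 had a fold of 11.3 at its start in MYT1L replicate 4 only. Elsewhere in the window of PSMC2 a region in MYT1L replicates 1 and 4 met an IgG replicate 2 peak with a fold of 4.20 on 4 fragments, 461 bp from the start of DNAJC2. PSMC3 had no peak in any library, although its promoter, with 31 CG, was among the richer ones.

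The other base subunits were called at 2 of 3 genes (66.7%, against 48.0% of all genes). PSMD1, the large scaffold of the base, had folds of 4.89, 8.10, 7.31 and 11.6 in MYT1L replicates 1 to 4 at chr2:231056607-231057325 (mean 7.97 ± 2.76, SD, n = 4). PSMD2, its partner scaffold, had a mean of 6.77 in 4 libraries. PSMD4, a ubiquitin receptor, had folds of 7.25 and 12.4 in MYT1L replicates 3 and 4 only, so it was missed by the call in spite of a high fold.

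The lid was called at 7 of 8 genes (87.5%, against 48.0% of all genes). Of these, 5 had a start region in all 4 libraries. PSMD7, the inactive partner of the deubiquitinase of the lid, had folds of 6.12, 5.80, 8.04 and 12.9 in MYT1L replicates 1 to 4 at chr16:74296518-74297328 (mean 8.22 ± 3.29, SD, n = 4). PSMD14, that deubiquitinase, had folds of 5.95, 5.63, 6.83 and 13.0 at chr2:161308195-161308846 (mean 7.86 ± 3.49, SD, n = 4). PSMD12, a scaffold subunit of the lid, had folds of 7.56, 4.67 and 12.3 in MYT1L replicates 1, 3 and 4 at chr17:67366193-67366756 (mean 8.18 ± 3.87, SD, n = 3). MYT1L replicate 4 stood well above the others at each of these genes, and the spread over libraries was larger than the differences between the genes. PSMD3, PSMD6 and PSMD11 were present in all 4 libraries, with mean folds of 6.33, 7.57 and 6.70. PSMD8 was present in 3, with 6.16. PSMD13 had peaks in 3 libraries, but in separate regions of 2 libraries each. One, chr11:235972-236544, had folds of 4.11 and 7.19 in MYT1L replicates 3 and 4, 699 bp upstream of its start and 654 bp from that of SIRT3. The other, chr11:236752-237311, had folds of 4.25 and 5.73 in MYT1L replicates 1 and 4, 76 bp upstream of its start. PSMD11 was called at its start but also had an IgG replicate 2 peak in its window, with a fold of 4.67 on 6 fragments, 3858 bp beyond the gene and 184 bp from the start of CDK5R1.

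The promoters of PSMD7, PSMD12 and PSMD14 are shown because these lid genes had the highest mean folds of the lid at their own starts. Each line gives the 250 bases before the first listed start, 5′ to 3′ on the strand of the gene, from RefSeq GRCh38.p14. Capitals mark matches, on either strand, to the motifs AAGTT (core of the MYT1 family), TGACNNNGC (core of the antioxidant response element, the kind of site used by NFE2L1), CCAAT (the box read by NF-Y), CCGGAAG (ETS family) and the core of the interferon response element (GAAA, then any 2 bases, then GAAA). PSMD7 spans chr16:74296564-74296813 on the plus strand, PSMD12 chr17:67366578-67366827 on the minus strand and PSMD14 chr2:161308175-161308424 on the plus strand.
PSMD7: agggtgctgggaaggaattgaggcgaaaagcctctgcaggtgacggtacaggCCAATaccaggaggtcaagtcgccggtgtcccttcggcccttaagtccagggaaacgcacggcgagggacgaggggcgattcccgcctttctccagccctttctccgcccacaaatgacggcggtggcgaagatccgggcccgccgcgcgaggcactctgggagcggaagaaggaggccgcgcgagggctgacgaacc
PSMD12: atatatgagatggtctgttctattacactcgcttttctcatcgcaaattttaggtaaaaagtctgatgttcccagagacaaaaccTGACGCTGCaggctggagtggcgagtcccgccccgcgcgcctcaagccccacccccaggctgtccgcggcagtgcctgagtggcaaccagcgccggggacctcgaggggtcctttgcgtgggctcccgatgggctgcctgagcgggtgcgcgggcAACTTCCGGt
PSMD14: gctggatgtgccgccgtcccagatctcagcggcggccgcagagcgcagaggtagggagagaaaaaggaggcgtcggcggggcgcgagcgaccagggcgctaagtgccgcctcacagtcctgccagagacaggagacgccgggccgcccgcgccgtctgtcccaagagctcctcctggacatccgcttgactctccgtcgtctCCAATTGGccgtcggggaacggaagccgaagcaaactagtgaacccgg
PSMD7 held a CCAAT 198 bases before its start and PSMD14 a pair that overlap, 48 and 45 bases before. PSMD12 held a TGACNNNGC 165 bases before its start and, close to the start, an AAGTT that overlaps a CCGGAAG. PSMD7 and PSMD14 also held a CCGGAAG in the 300-base promoter, but not wholly within the bases shown.

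The MYT1-family core was no more frequent at proteasome promoters than at others. AAGTT was found in the 300-base promoters of 14 of the 44 proteasome genes with one (31.8%), against 29.3% of 15843 protein-coding genes. It was present at 10 of the 30 called and 4 of the 14 uncalled proteasome genes. Over all genes it was present at 24.4% of the called and 34.2% of the others, so it was the less frequent where peaks were called. Calls were also more frequent at promoters with at least 10 CG (60.9%) than at those with fewer (20.5%). The letters were not compared at like composition or within the peaks, and the difference was not tested. TGACNNNGC was found at 13 of the 44 (29.5%, against 14.3%), CCGGAAG at 14 (31.8%, against 14.2%) and CCAAT at 21 (47.7%, against 36.4%). TGACNNNGC was present at 10 of the 30 called genes and 3 of the 14 others, CCGGAAG at 9 and 5. The interferon response core was found at PSMA4, PSMB4, PSMB10, PSME1, PSME2 and PSMG4, 6 of the 44 (13.6%, against 3.17%), of which 4 were called. A match describes letters within 250 bases before and 50 after a start and not a site in use.

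The interferon-induced activator genes were both called, unlike the inducible catalytic genes, against 48.0% of all genes. PSME1 and PSME2 encode the alpha and beta subunits of PA28, which opens the gate of the core. PSME1 had folds of 4.08, 5.82 and 9.59 in MYT1L replicates 1, 3 and 4 at chr14:24135688-24136495 (mean 6.50 ± 2.82, SD, n = 3), 113 bp upstream of its start. PSME2 had folds of 3.75, 4.07 and 6.16 in the same libraries at chr14:24146442-24148003 (mean 4.66 ± 1.31, SD, n = 3), the lowest start region among the called genes. Its summit lay 983 bp upstream of PSME2 and 95 bp from the start of RNF31, which starts on the other strand. At PSME2 the peak was therefore nearer to RNF31 than to the activator gene.

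The promoters of these genes and of the immunoproteasome genes are shown together because they are the interferon-inducible ones, with and without a call. They are the 250 bases before the first listed start, marked as above. PSME1 spans chr14:24135944-24136193 on the plus strand, PSME2 chr14:24146611-24146860 on the minus strand, PSMB8 chr6:32844680-32844929 on the minus strand, PSMB9 chr6:32853942-32854191 on the plus strand and PSMB10 chr16:67936851-67937100 on the minus strand.
PSME1: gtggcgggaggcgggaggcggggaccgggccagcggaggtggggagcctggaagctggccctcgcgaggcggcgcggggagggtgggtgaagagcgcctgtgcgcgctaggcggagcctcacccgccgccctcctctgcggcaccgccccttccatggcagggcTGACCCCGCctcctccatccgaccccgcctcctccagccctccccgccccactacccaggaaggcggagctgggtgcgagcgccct
PSME2: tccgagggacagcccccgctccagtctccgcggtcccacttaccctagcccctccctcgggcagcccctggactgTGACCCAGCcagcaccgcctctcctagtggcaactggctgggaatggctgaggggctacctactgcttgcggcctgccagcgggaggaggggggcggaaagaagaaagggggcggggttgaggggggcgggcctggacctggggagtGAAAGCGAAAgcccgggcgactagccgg
PSMB8: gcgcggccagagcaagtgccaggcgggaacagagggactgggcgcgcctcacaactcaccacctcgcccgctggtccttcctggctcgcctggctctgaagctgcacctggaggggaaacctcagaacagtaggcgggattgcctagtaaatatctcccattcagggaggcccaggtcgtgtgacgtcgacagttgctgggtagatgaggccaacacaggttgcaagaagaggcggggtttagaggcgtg
PSMB9: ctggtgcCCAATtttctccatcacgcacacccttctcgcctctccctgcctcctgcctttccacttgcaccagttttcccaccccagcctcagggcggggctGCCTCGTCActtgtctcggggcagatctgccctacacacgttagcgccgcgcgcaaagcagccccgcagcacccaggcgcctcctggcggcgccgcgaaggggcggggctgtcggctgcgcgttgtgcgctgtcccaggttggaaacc
PSMB10: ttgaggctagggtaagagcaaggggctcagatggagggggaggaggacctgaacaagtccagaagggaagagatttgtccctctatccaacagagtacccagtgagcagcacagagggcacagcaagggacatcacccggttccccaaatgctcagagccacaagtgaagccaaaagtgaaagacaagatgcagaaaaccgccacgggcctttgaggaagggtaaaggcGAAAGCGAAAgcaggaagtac
The interferon response letters stood 28 bases before the start of the called PSME2 and 21 bases before that of the uncalled PSMB10, so they did not separate called from uncalled genes. PSME1 held them after its start, outside the bases shown. PSMB8 held none of the 5 motifs in the bases shown, and PSMB9 held a CCAAT and a TGACNNNGC on the other strand.

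The remaining regulators were all called, against 48.0% of all genes. PSME3, which encodes the nuclear activator PA28 gamma, had a mean fold of 6.39 in 4 libraries, and PSME4, which encodes the activator PA200, one of 7.0 in 3. PSMF1, which encodes the inhibitor PI31, had one of 5.87 in 3. Its called region lay 51 bp from an internal start and 5390 bp downstream of the first listed start. It was not at the first listed promoter, whose 4 CG placed the gene among those with fewer than 10.

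The chaperones that build the 20S core were all called, against 48.0% of all genes. PSMG1 to PSMG4 each had a start region in all 4 libraries, and PSMG2 had the highest mean fold of the 40 called regions. PSMG2, which with PSMG1 guides assembly of the alpha ring, had folds of 9.23, 7.74, 7.18 and 13.4 in MYT1L replicates 1 to 4 at chr18:12702281-12703238 (mean 9.39 ± 2.82, SD, n = 4). This summit lay 238 bp upstream of an internal start of PSMG2 and 27 bp from that of CEP76. A second region, chr18:12657050-12658654 with a mean fold of 6.18, lay 1166 bp upstream of the gene and 840 bp from the start of SPIRE1. PSMG1, PSMG3 and PSMG4 had mean folds of 7.30, 6.92 and 6.04, all below that of PSMG2.

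The chaperones of the base were called at 2 of 3 genes (66.7%, against 48.0% of all genes). PSMD10, also known as gankyrin, had a mean fold of 6.23 in 4 libraries, with its summit 62 bp from the start of ATG4A, and PSMD5 one of 4.93 in 3. PSMD9 had folds of 6.48, 7.75, 7.94 and 14.2 in MYT1L replicates 1 to 4 at chr12:121888590-121889120 (mean 9.10 ± 3.47, SD, n = 4), among the highest of the 50 genes. IgG replicate 2 had a peak within it, with a fold of 5.74 on 6 fragments, 46 bp from the start of the gene. The deposited IgG fold lay below all 4 MYT1L folds. The fold adds 1 to the fragments and to the background, which lowers it more in a shallow library. This order is therefore not one of enrichment at equal depth. PSMD9 was left uncalled by the rule on IgG alone.

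IgG peaks were present in the windows of 4 of the 50 genes (8.0%, against 4.16% of all genes), namely PSMA6, PSMC2, PSMD9 and PSMD11. All 4 came from IgG replicate 2 and rested on 4 to 9 fragments. At PSMD9 the peak overlapped MYT1L peaks of 4 libraries, at PSMA6 of 2 and at PSMC2 and PSMD11 of MYT1L replicate 4 alone. Only at PSMA6 and PSMD9 did it lie at a start of the gene itself. The count fell to 1 when the window was 1 kb around either gene end, with the rest of the body left out, and to 0 without IgG replicate 2.

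The genes that match by name only were both called, against 48.0% of all genes. PSMC3IP, whose product acts in meiotic recombination, had folds of 4.54, 5.61 and 6.99 in MYT1L replicates 1, 3 and 4 at chr17:42577471-42578071 (mean 5.71 ± 1.23, SD, n = 3). PSME3IP1, whose product binds the activator PA28 gamma, had folds of 6.10, 4.33, 6.20 and 9.07 in MYT1L replicates 1 to 4 at chr16:57186040-57186743 (mean 6.43 ± 1.96, SD, n = 4). Without these genes, 31 of 48 were called (64.6%).

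Some of the called regions belong as much to a neighbour as to the proteasome gene. Of the 40 regions, 26 had their summit nearer to a start of the proteasome gene, 11 nearer to a start of another gene, and 3 lay at genes with no listed start. The 26 include the further regions of PSMA1, which lay 113175 and 123538 bp from its nearest listed start. Those 11 lay at PSMA2 and PSMG2, with 2 each, and at PSMA5, PSMC4, PSMC5, PSMC6, PSMD10, PSMD14 and PSME2, with 1 each. Distances to the other start ran from 27 bp, from CEP76 at PSMG2, to 840 bp, from SPIRE1 at the same gene. Of the 3 regions without a listed start, that of PSMA7 lay 158 bp from the start of SS18L1 and 217 bp from its gene end. That of PSMG3 lay 67 bp from the start of PSMG3-AS1 and 108 bp from its gene end. At PSMB1 the gene end was the nearer, at 102 bp, with the start of TBP 1164 bp away.

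Genes that work beside the proteasome were called about as often as the subunits. Of 14 partners of the proteasome, which bind, build or regulate it, 10 were called (71.4%, against 48.0% of all genes), 6 of them with a region in all 4 libraries (against 25.3% of all genes). These were UCHL5 and USP14, deubiquitinases bound to the cap, with mean folds of 8.11 and 6.47, UBE3C, a ubiquitin ligase, with 6.86, TXNL1, a thioredoxin-like protein of the cap, with 7.20, PAAF1, an ATPase-binding factor, with 7.52, and NGLY1, the glycanase that processes NFE2L1, with 7.10. NFE2L1, the factor that raises proteasome genes when degradation fails, was called with a mean fold of 5.94 in 3 libraries. POMP, the maturation chaperone of the core, had peaks in all 4 MYT1L libraries with a mean fold of 9.0 but overlapped an IgG peak, as did ZFAND5. So 2 of the 4 uncalled partners were left out for an IgG peak.

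Genes that supply ubiquitin or carry its conjugates to the proteasome were called in part. Of 14 genes that supply or shuttle ubiquitin, 8 were called (57.1%, against 48.0%). The 5 with a region in all 4 libraries were UBA6, an activating enzyme, with a mean fold of 8.79, RAD23B, a shuttle, with 8.28, and the segregase VCP with its cofactors NPLOC4 and UFD1, with 6.35, 6.56 and 6.98. Of 12 genes of antigen processing and interferon response, 6 were called (50%), close to the background of 48.0%. Among those with a region in all 4 libraries were TAPBP (mean fold 4.51), B2M (5.98) and ERAP1 (6.75). TAP1 and TAP2 were not called. TAP2 had a region in 2 libraries within the window of PSMB8. TAP1 had peaks in 3 libraries, but its regions held 2 libraries each. One lay at the start of PSMB8 and another, counted above for PSMB9, 400 bp from the start of TAP1. Whether any list differed from all genes was not tested.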

How the data were processed

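Each of the 6 libraries (4 MYT1L, 2 IgG) had 1 deposited peak list, with groups taken from the titles. MACS2 and hg38 are named in the submitters' processing notes, with no version or role. The aligner, the threshold and the control library are not given in the sources used here. Libraries were made with a commercial CUT&RUN kit, per the labels' protocols. The numbers in the names of the MYT1L peaks run 1 higher than those of the titles, so a replicate number may differ from that used at the bench. Each deposited peak has a position and summit, a fold over local background (a ratio), a −log10 p, a −log10 q and a score, all of them the authors' values. The score was not used. The formula that fits the fold adds 1 to the fragments and to the background, so folds of libraries of unlike depth are not on one scale.

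Peaks of the MYT1L lists that shared at least 1 bp were joined into 49028 regions (0 differences from bedtools 2.31.1). Fragments at a summit were solved as the whole number that gives both the deposited fold and the deposited −log10 p under the formulas of MACS, within 0.0002. They came out whole for 99.96% to 100% of peaks, and depth was estimated from the lowest shared background. Whether a peak would be expected at another depth (probability of at least 0.5) came from binomial thinning. Both steps were tested on simulated data. Starts and promoter sequences came from RefSeq GRCh38.p14. Exons and introns were not assigned. Python 3.11.15, pandas 2.3.3 and scipy 1.17.1 were used.

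The members, lists and motifs were chosen with earlier results of these data known. All members are accounted for. Described in full are the immunoproteasome, thymus, testis, PA28 alpha and beta and name-only genes, the 8 other called members with the highest mean fold, those with no MYT1L peak and those with an IgG peak, and of the pathway lists the genes with a region in all 4 libraries, TAP1, TAP2, NFE2L1 and POMP. Some genes of the pathway lists are not reported here. Alternatives changed the number of libraries, the threshold, the list length, the window, the treatment of IgG and the libraries used.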

Additional observations from a re-analysis of the deposited data

Results flagged for a closer look

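At 20 start regions with peaks in all 4 MYT1L libraries the folds were searched for a library far from the rest, and MYT1L replicate 4 stood apart at 4 of them. PSME3 had a fold of 9.05 there, against 5.26 to 5.73 in the other libraries. PSMC5 had 11.6, against 5.08 to 5.42. PSMD2 had 10.9, against 5.21 to 5.63. PSMD14 had 13.0, against 5.63 to 6.83. Chance marks about 1 in 20 groups of 4. The 4 genes encode a nuclear activator, an ATPase and a scaffold of the base, and the deubiquitinase of the lid. Without MYT1L replicate 4 each was still in the 3 other libraries, and the same library also had the highest fold in 80.5% of all genes' regions with peaks in 4 libraries.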

How the results depend on the processing

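Over 14 alternatives the number of called proteasome genes ran from 22 to 42 (31 to 40 when 1 library was left out), and their share lay above that of all genes in each of the 14. For the constitutive genes the number ran from 21 to 35 (29 to 34 with 1 library left out). With 1 MYT1L library left out, peaks in 2 of the 3 left sufficed for a call. Peaks in at least 2 libraries gave 42 called genes, which held all 33. A −log10 q of at least 5 gave 22, of which 21 were among the 33. The immunoproteasome, thymus and testis genes went from 0 to 3 with peaks in at least 2 libraries, a setting that called 65.3% of all genes. They ran from 0 to 2 with 1 library left out. The 7 catalytic genes went from 0 to 6, and ran from 0 to 4 with 1 library left out, a count added after the data were seen. Genes with an IgG peak fell from 4 to 1 under the stricter −log10 q, to 1 with windows of 1 kb around either gene end in place of the body, and to 2 in the gene body alone, and ran from 0 to 4 with 1 IgG library left out. The median fold ran from 5.71 to 7.57, lowest without MYT1L replicate 4. No paired analysis was possible because the results are counts from peak lists with no test, and the labels do not tie MYT1L to IgG libraries of the same number. IgG depth limits what a missing IgG peak can show, and peak lists do not tell an absent signal from one under the threshold.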
